A study of Homo sapiens with 9 samples.

Results

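The histone transcripts were followed in RNA of extracellular vesicles through every probe set of the array whose annotated gene symbol, alone or among several, names an H1, H2A, H2B, H3, H4, H2AX, H2AZ, H2AJ, H3-3 or macroH2A gene. There were 111 such probe sets of 54675, for 82 of the 21357 genes annotated on the array. Of these, 70 belong to the replication-dependent cluster genes, 28 to variant genes and 4 to H2AX, and the remaining 9 to germline H1 and H2A genes, pseudogenes and an antisense RNA. The vesicles were released by H9, an established human embryonic stem cell (hESC) line grown without serum or feeder cells, and all came from this 1 line without treatment. Microvesicles (MVs) were the pellet of a spin at 16500g for 1 hour, and exosomes (EXOs) the pellet of a later spin of the same medium at 120000g for 2 hours. Non-fractionated vesicles (hESEVs) were, per the labels, pelleted in 1 step at 120000g for 2 hours, a setting the methods give differently. Each group had 3 arrays of separate preparations. The pellets were separated by speed, and the authors found that MVs and EXOs differed in vesicle size and surface proteins. The size ranges overlapped in part, so each pellet may hold vesicles of both kinds.

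Histones package DNA: pairs of H2A, H2B, H3 and H4 form the core of the nucleosome, and the linker histone H1 binds where DNA enters and leaves it. The cluster genes make most of this protein during S phase. Their mRNAs have no introns and end in a conserved stem-loop, bound by the protein SLBP, in place of a poly(A) tail. The variant genes, such as H2AZ1 and H3-3B, are transcribed throughout the cell cycle, mostly have introns and make polyadenylated mRNAs. Some cluster genes also give polyadenylated transcripts, and H2AX gives both forms. The standard Affymetrix protocol that the labels name usually copies RNA from an oligo(dT) primer, which anneals to poly(A), although the primer is not given in the sources used here. With such a primer, a low signal of a cluster probe set is no measure of how much stem-loop mRNA a vesicle held.

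The sequences before the start of both kinds of gene were read as well. RefSeq promoters of assembly GRCh38.p14 were found for 71 of the 82 genes, and the 250 bases before the start were searched on both strands for 4 elements chosen after the sequences had been seen. These were CCAAT, the TATA box letters TATAAA, the octamer ATTTGCAT and GGTCCG, the core of an element of H4 promoters that the factor HINFP binds. Elements can share letters, as CCAAT and the opposite strand of GGTCCG do in H2BC21. With these elements on either strand in capitals, the 120 bases before the start are shown for 5 genes, 3 of the clusters and 2 variants. Each of these genes is annotated to a probe set described below, called or not, alone or with other genes. They are H4C11 (chr6:27823972-27824091, plus strand), H2AC18 (chr1:149842751-149842870, minus strand), H2BC21 (chr1:149886683-149886802, minus strand), H3-3B (chr17:75779780-75779899, minus strand) and H2AZ1 (chr4:99950276-99950395, minus strand).
H4C11: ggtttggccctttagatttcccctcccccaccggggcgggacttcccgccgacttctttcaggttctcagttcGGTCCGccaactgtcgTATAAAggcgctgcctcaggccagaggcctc
H2AC18: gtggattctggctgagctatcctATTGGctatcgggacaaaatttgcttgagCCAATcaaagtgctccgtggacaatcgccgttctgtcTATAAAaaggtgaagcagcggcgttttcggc
H2BC21: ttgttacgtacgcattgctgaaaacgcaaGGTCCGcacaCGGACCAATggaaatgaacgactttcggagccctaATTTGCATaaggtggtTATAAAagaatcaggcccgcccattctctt
H3-3B: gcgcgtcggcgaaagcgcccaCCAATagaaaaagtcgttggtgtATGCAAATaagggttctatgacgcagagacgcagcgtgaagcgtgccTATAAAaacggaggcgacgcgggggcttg
H2AZ1: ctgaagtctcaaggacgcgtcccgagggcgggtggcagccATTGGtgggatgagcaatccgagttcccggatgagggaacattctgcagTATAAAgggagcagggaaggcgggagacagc

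The TATA box letters stood in all 5 windows shown. Across the genes, GGTCCG was found for 12 of 13 cluster H4 genes, for 2 of the other cluster genes and for 3 of 8 variant genes, against 9.43% of all 35116 promoters. The octamer was found for 13 of 16 cluster H2B genes and 8 of 13 cluster H2A genes, for no H1 or H4 gene of the clusters and for 1 of 8 variant genes, against 1.63% of all promoters. CCAAT stood before every matched cluster gene of the H1, H2A, H2B and H3 families but before only 3 of 13 H4 genes, and before 6 of 8 variant genes, against 11240 of all 35116 promoters. TATAAA was found for 38 of 57 cluster genes and 3 of 8 variant genes, against 10.7%. These are matches of letters and were not tested as binding sites.

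The variant histone mRNAs were higher in MVs than in EXOs for most probe sets. Cluster probe sets passed the test as higher about as often as all probe sets did, at 5.71% against 7.23%. Signals are MAS5 intensities that the authors scaled to a target of 500 on each array. Differences were taken on log2 of the signal, with values under 32 raised to 32. A probe set was called where limma gave an adjusted p under 0.05 together with a 2-fold or larger difference, with p-values adjusted over all 54613 probe sets that are not controls. In MVs over EXOs, 15 of 28 variant probe sets were called higher and 1 lower, whereas 4 of 70 cluster probe sets were called higher and 0 lower. Among all probe sets 7.23% were called higher and 1.97% lower. The median log2 fold change was 1.61 over the variant probe sets, 0.15 over the cluster probe sets and -0.29 over all probe sets. The MVs arrays lay wholly above the EXOs arrays for 17 variant and 8 cluster probe sets and wholly below them for 2 and 8, against 13.3% above and 21.7% below among all probe sets. Members of a class share genes and sequence and are not replicates, so these medians carry no test, and more vesicles with an mRNA cannot be told apart from more copies in each vesicle. After quantile normalization between the arrays the variant median was 1.07 and the cluster median 0.31. Over the 9 variant probe sets of a single gene without a suffix for shared probes, the variant median was 0, with 2 called higher. Of all 26777 such probe sets on the array 1458 were called higher. Without EXOs replicate 3 the cluster median turned to -0.028, and without MVs replicate 2 or 3 it was 0.0013 and 0.031.

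**Figure D1:**
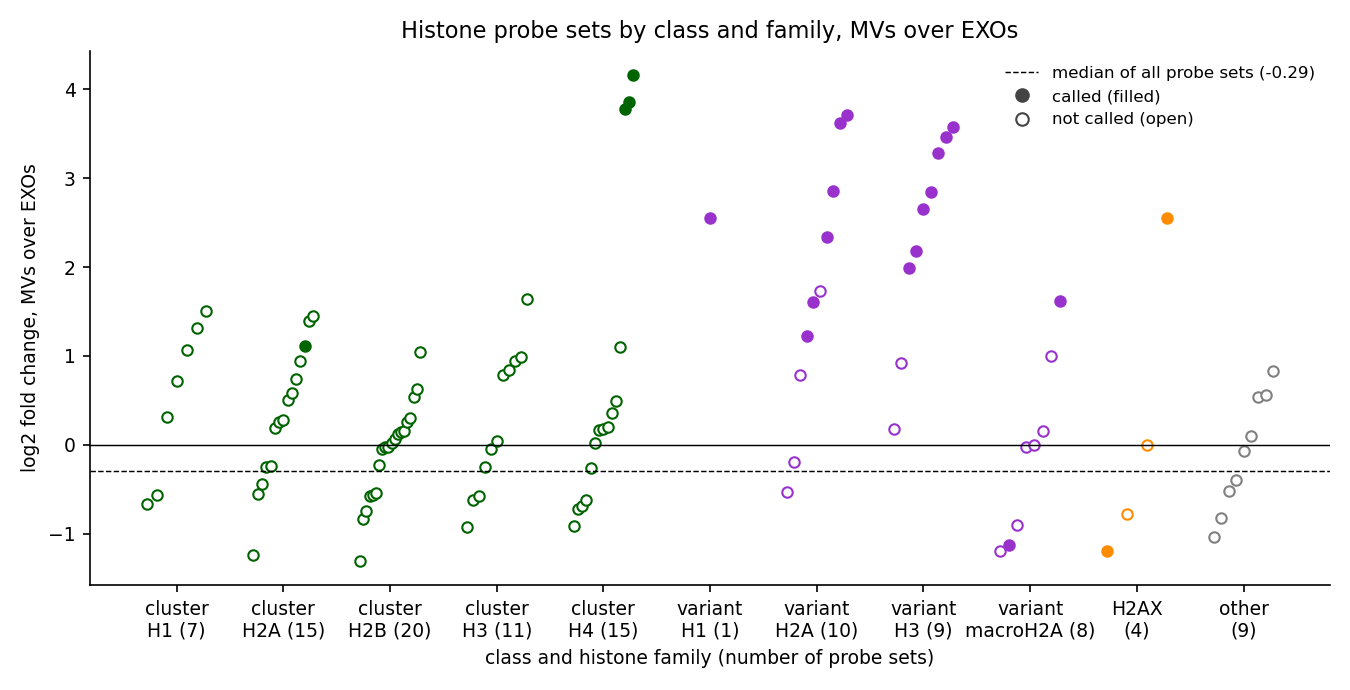
Log2 fold change, MVs over EXOs, of the histone probe sets by class and family, except for 2 cluster probe sets annotated to both H2A and H3 genes, with filled points called and open points not called, and the dashed line at the median of all probe sets, -0.29. The filled cluster points are 3 of H4 and 1 of H2A, while 15 variant points are filled above 0.

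The variant probe sets were also the brighter ones, and the share of calls among all probe sets went up with signal. Of all probe sets with a mean log2 signal of at least 11 over the 9 arrays, 60.3% were called higher in MVs over EXOs, against 11.8% of those between 9 and 11 and 3.06% of those under 9. In the same bins, which were chosen after the data were seen, 9 of 9, 5 of 12 and 1 of 7 variant probe sets were called higher. For the cluster genes the counts were 1 of 1, 1 of 15 and 2 of 54. The count for all variant probe sets is thus to be read against these shares as well as against 7.23%, and the part of signal level in it was not tested.

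On each array the median signal of the variant probe sets lay above that of the cluster probe sets. The gap on the log2 scale was 2.10 to 2.41 in MVs, against 1.35 to 1.48 in EXOs and 1.61 to 2.05 in hESEVs. The gaps did not overlap between any 2 groups. The cluster medians, by contrast, overlapped between all groups, at 8.28 to 8.43 for MVs, 8.17 to 8.45 for EXOs and 8.21 to 8.60 for hESEVs. Since different probe sets bind with different strength, a gap between classes is no ratio of mRNA amounts, and only its change between groups is read here. On each array the cluster median lay below the median of all probe sets, so the change of the gap is mainly one of the variant signals.

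**Figure D2:**
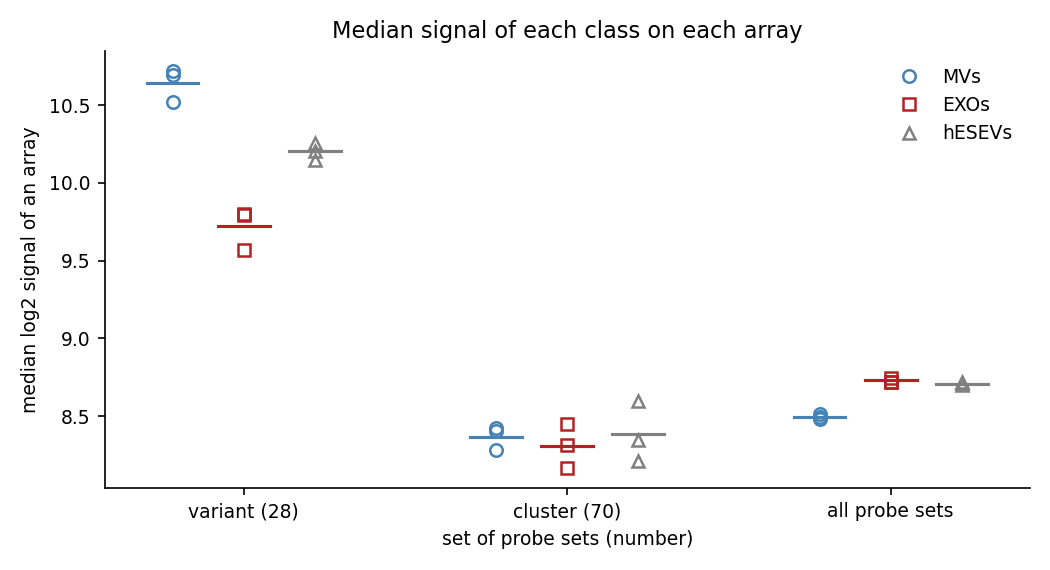
Median log2 signal on each of the 9 arrays over the 28 variant probe sets, the 70 cluster probe sets and all probe sets, with 1 point per array and a bar at the mean of the 3 arrays. The variant medians of MVs, 10.52 to 10.72, lie above those of EXOs, 9.57 to 9.80, while the cluster medians of the groups overlap.

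To set a level below which a signal says little, genes restricted to tissues absent from this culture were used. The 90th percentile of 40 such genes was 1425 in MVs, 1326 in EXOs and 1202 in hESEVs. Each was read by its brightest probe set, whereas every histone probe set was compared with the result. Of the 40, 4 were called higher and 4 lower in MVs over EXOs, against 2293 and 548 of 19775 genes with 1 probe set each. The level is thus a rough guide. Means above it were found for 15, 9 and 15 of the 28 variant probe sets in MVs, EXOs and hESEVs, and for 2, 1 and 1 of the 70 cluster probe sets. Cluster transcripts other than those of H4 were thus not detected above this level in any group, and for them a missing difference is not a measured equality. Of the markers of stem cells, LIN28A averaged 17754 ± 1339.8 in MVs and 2599.7 ± 204 in EXOs (SD, n = 3 arrays each), above the level in both groups, and 11 of 12 were called higher in MVs. Of 13 markers of differentiated lineages 0 were called higher and 1 lower. Both marker lists are to be read against the same 2293 and 548 of 19775 genes.

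H3-3A and H3-3B encode the same protein, H3.3, which replaces H3 in nucleosomes outside replication. Of the 9 probe sets, 8 are annotated to both genes, 4 of them to the pseudogene H3P6 as well, so they are not independent readings and cannot be assigned to either gene. The brightest, 200080_s_at, had 83173, 90647 and 85639 in MVs, 13838, 13509 and 13733 in EXOs and 28492, 25340.3 and 25026 in hESEVs. No group overlapped another, and MVs were 6.31-fold above EXOs (log2 fold change 2.66, standard error 0.11, adjusted p = 3.3e-06). After quantile normalization its log2 fold change was -0.09. Among all probe sets of an array it ranked between 53 and 92 by signal, and quantile normalization gives equal values to equal ranks. The second brightest, 213828_x_at, was 9.70-fold higher in MVs (adjusted p = 1.15e-06), or 0.60 on the log2 scale after quantile normalization, which is under 2-fold.

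In every other called H3-3 probe set the MVs arrays lay above the hESEVs arrays, and these above the EXOs arrays. The probe set 208755_x_at had 51760.4, 57094 and 51393 in MVs, 4546, 5005 and 4954 in EXOs and 18539.5, 13669 and 15493 in hESEVs, 11.04-fold higher in MVs than in EXOs. Of the remaining 4, 211940_x_at was 11.97-fold, 211997_x_at 7.18-fold, 211999_at 4.52-fold and 209069_s_at 3.97-fold higher. The fold of 211997_x_at is uncertain in size, since its EXOs mean was below the level of the tissue-restricted genes. The only probe set annotated to H3-3A alone, 213826_s_at, did not follow them. It had 1503, 2089 and 1769 in MVs, 1496, 1548 and 1646 in EXOs and 1688, 1401 and 1663 in hESEVs, and the groups overlapped (log2 fold change MVs over EXOs 0.18, standard error 0.14, adjusted p = 0.451). The part of the transcript that each probe set reads was not analysed here.

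H2AZ1 and H2AZ2 encode H2A.Z, a variant placed next to promoters by the SRCAP and EP400 complexes. The H2AZ1 probe set 213911_s_at had 25519, 28485 and 28338 in MVs, 2215, 1989 and 2501 in EXOs and 6977, 6811 and 5723 in hESEVs. MVs were higher than EXOs by 12.3-fold (log2 fold change 3.62, standard error 0.11, adjusted p = 1e-06), with hESEVs between them. The other H2AZ1 probe set, 200853_at, carries no suffix for shared probes and had 16548, 15505 and 15526 in MVs, 1705, 895 and 1162 in EXOs and 3083, 3307 and 2938 in hESEVs. Its difference was 13.1-fold (adjusted p = 1.65e-05), uncertain in size since its EXOs mean was below the tissue-restricted level.

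H2AZ2 was less uniform, and the EXOs signals of its called probe sets did not reach the tissue-restricted level, so that their folds are uncertain in size. Its probe set 202487_s_at had 3836, 2679.6 and 3180.4 in MVs, 804, 1211 and 1183 in EXOs and 1987, 2213 and 2148 in hESEVs, 3.05-fold higher in MVs than in EXOs (adjusted p = 0.00159). A second, 212205_at, was 2.33-fold higher with an adjusted p of 0.0331, and lost the call without MVs replicate 1, 2 or 3 or EXOs replicate 1 or 3 (adjusted p 0.0471 to 0.113, with a log2 fold change of 0.93 without EXOs replicate 3). The probe set 227085_at did not differ beyond the spread, with 1324, 1429 and 1545 in MVs, 1436, 1358 and 2231 in EXOs and 1048, 1531 and 1324 in hESEVs. Between MVs and EXOs these arrays overlapped. The dimmest, 212206_s_at, was not called.

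H2AJ encodes an H2A variant whose synthesis is not tied to replication. Its probe set 225245_x_at had 2295, 2272 and 2135 in MVs, 459, 631 and 296 in EXOs and 1695, 1302 and 1014 in hESEVs, with 5.07-fold more signal in MVs than EXOs (adjusted p = 0.000954). The EXOs arrays stood apart from all others here. The probe set 224301_x_at had 2015, 2421 and 2159.7 in MVs, 169, 254 and 642 in EXOs and 1708, 1163 and 1270.0 in hESEVs, 7.25-fold higher in MVs (adjusted p = 0.00505). No EXOs signal of either reached the tissue-restricted level, so the sizes of these folds are uncertain. The other 2 H2AJ probe sets, both dim, were not called. H1-10, a linker histone variant, had 1 probe set, with 879, 754 and 947 in MVs, 356, 145 and 59.9 in EXOs and 379, 311 and 392 in hESEVs. Its signals stayed under that level in all groups, and its difference of 5.87-fold between MVs and EXOs (adjusted p = 0.0396) lost its call without MVs replicate 1, 2 or 3 or EXOs replicate 2 (adjusted p 0.0965 to 0.125).

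**Figure D3:**
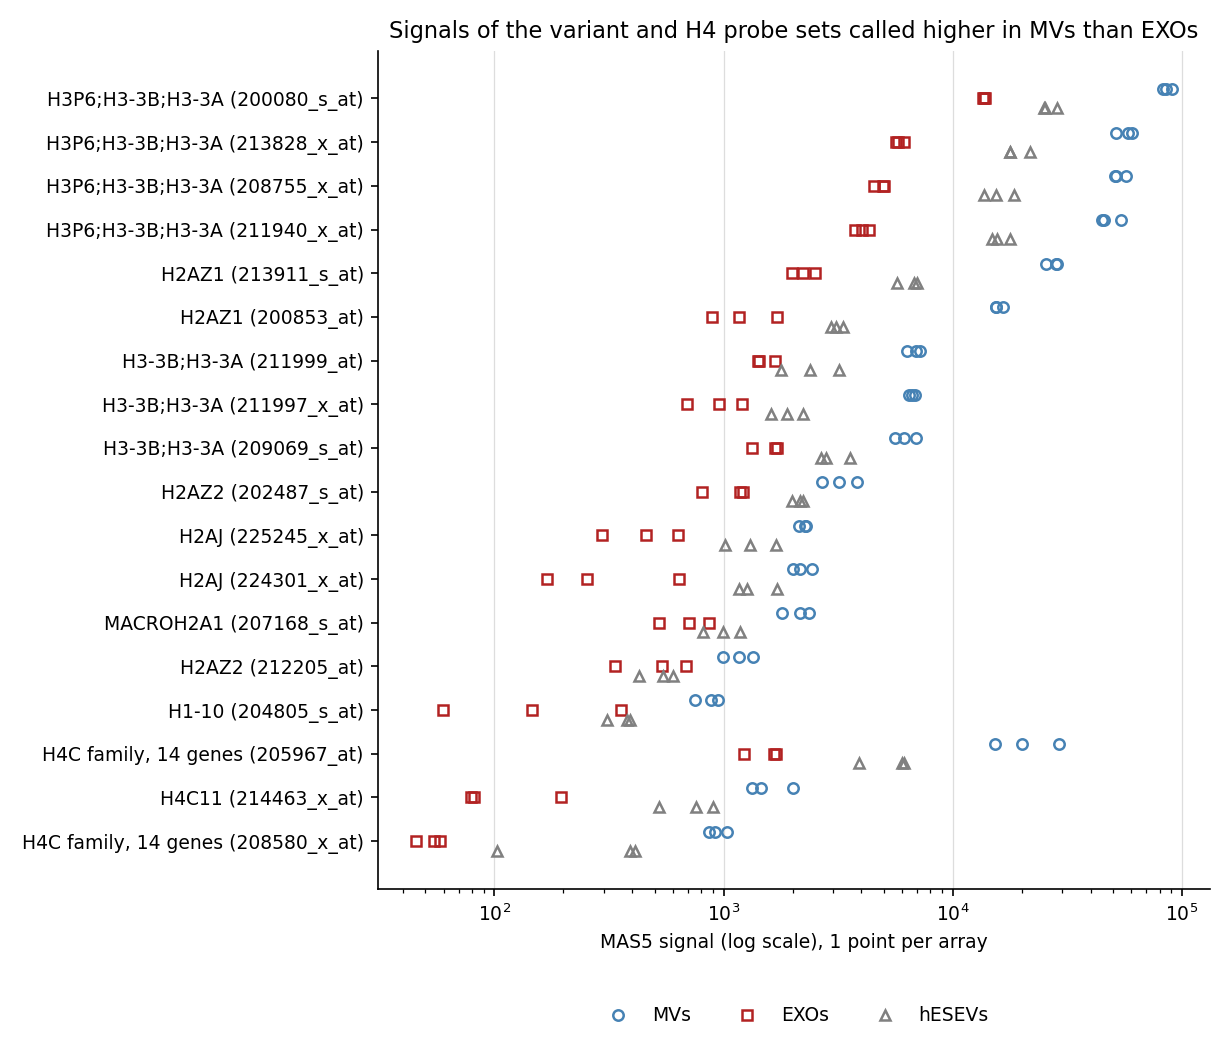
MAS5 signal, on a log scale, of the 15 variant and 3 H4 probe sets called higher in MVs than EXOs on each of the 9 arrays, 1 point per array. The MVs points lie to the right of the EXOs points in every row, from 83173 to 90647 against 13509 to 13838 for 200080_s_at at the top to 862 to 1037 against 45.5 to 58.0 for 208580_x_at at the bottom.

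The 8 macroH2A probe sets had no common direction in MVs over EXOs, with a median log2 fold change of -0.01. Of them 1 was called higher and 1 lower, against 7.23% and 1.97% of all probe sets. As given above, H3-3, H2AZ2 and H2AJ also had probe sets that were not called. MACROH2A1 encodes an H2A with a large additional macro domain, found on silent chromatin, and its probe sets were called in opposite directions. The probe set 207168_s_at had 2362, 1796 and 2155 in MVs, 865, 707 and 520.4 in EXOs and 1180.2, 992 and 812 in hESEVs, 3.06-fold higher in MVs than in EXOs (adjusted p = 0.00213). The probe set 229593_at had 661, 504 and 426 in MVs, 1177, 1010.1 and 1253 in EXOs and 996, 1141 and 991 in hESEVs, and its log2 fold change was -1.13 (standard error 0.22, adjusted p = 0.0148). MVs thus stood above both other groups with the first and below both with the second. With 207168_s_at only MVs reached the tissue-restricted level, so that its fold is uncertain in size. No signal of 229593_at reached the level set by the tissue-restricted genes, and its call was lost without MVs replicate 2 or 3 or EXOs replicate 1 or 3 (adjusted p 0.0443 to 0.0573, with a log2 fold change of -0.98 to -1.11).

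The brightest MACROH2A1 probe set over all arrays, 214501_s_at, did not differ beyond the spread. It had 1442, 1589 and 1201 in MVs, 1237, 1263 and 1276 in EXOs and 1186, 1292 and 1306 in hESEVs. The remaining 4 probe sets of the gene were not called. MACROH2A2, its close relative, had 405, 458 and 189 in MVs, 245, 155 and 114 in EXOs and 166, 185 and 164 in hESEVs with 1 probe set, all below the tissue-restricted level and not called.

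H2AX, whose phosphorylated protein marks DNA breaks, showed the same division between probe sets. The probe set 205436_s_at had 4153, 4824 and 4427 in MVs, 811, 819.6 and 667 in EXOs and 2164, 1872 and 2071 in hESEVs. MVs were 5.85-fold above EXOs (log2 fold change 2.55, standard error 0.13, adjusted p = 7.95e-06), with no overlap between groups, although EXOs were below the tissue-restricted level and the fold is uncertain in size. The probe set 212524_x_at had 325, 548 and 326 in MVs, 830.5, 835 and 1009 in EXOs and 314, 414 and 505 in hESEVs, with a log2 fold change of -1.20 (adjusted p = 0.0316). This call in the other direction rested on dim signals and was lost without MVs replicate 1 or 3 or any 1 EXOs replicate (adjusted p 0.0789 to 0.106).

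The third H2AX probe set, 213344_s_at, had 1010.3, 1059 and 1373 in MVs, 1078, 1153 and 1179 in EXOs and 900.0, 576 and 980.3 in hESEVs. The fourth, 212525_s_at, had 298, 188 and 402 in MVs, 562, 320.4 and 623 in EXOs and 221, 534 and 479 in hESEVs. Neither was called, and MVs and EXOs overlapped with both. Which of the 2 mRNA forms of H2AX each probe set reads was not analysed here.

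**Figure D4:**
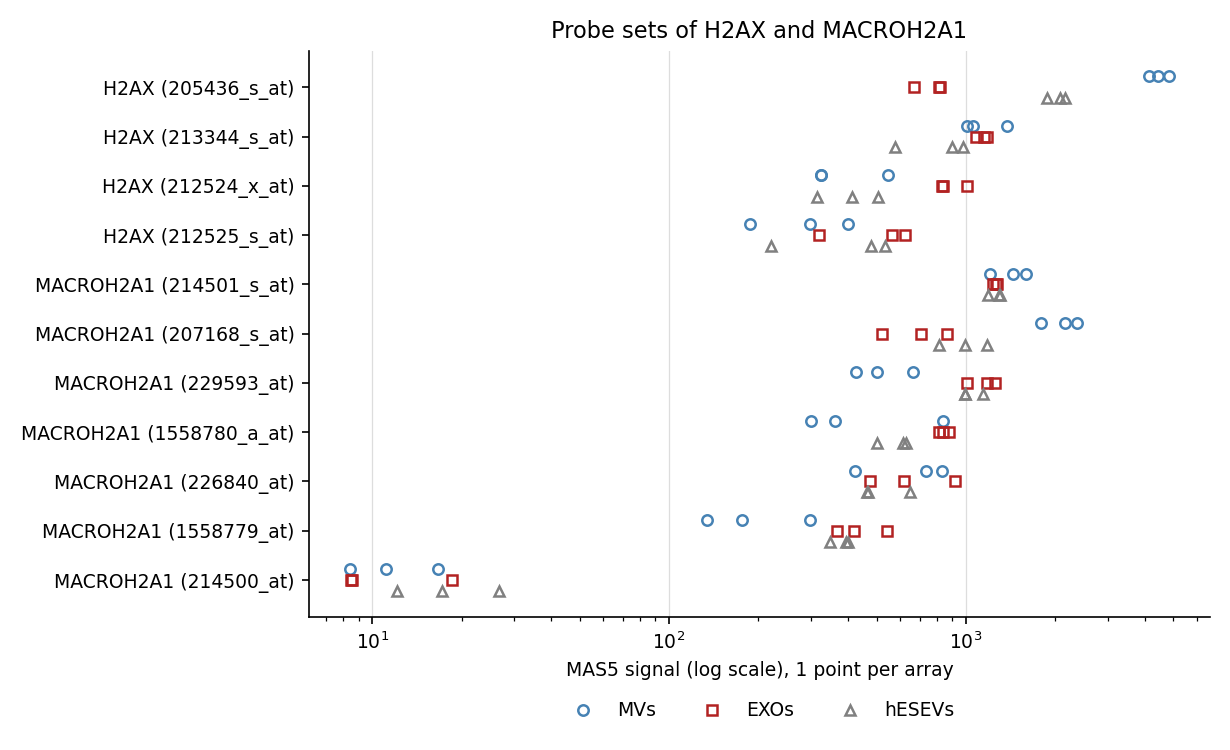
MAS5 signal, on a log scale, of the 4 H2AX and 7 MACROH2A1 probe sets on each of the 9 arrays, 1 point per array. MVs lie to the right of EXOs for 205436_s_at and 207168_s_at and to the left for 212524_x_at and 229593_at, and the lowest row, 214500_at, stays under 32.

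Among the cluster genes, 1 bright H4 probe set stood out. Of the 15 H4 probe sets 3 were called higher, against 7.23% of all probe sets, and their median log2 fold change was 0.18. Of all probe sets with a mean log2 signal of at least 11, as the bright one has, 60.3% were called higher. H4 is the most conserved core histone, and its many genes encode 1 protein. The probe set 205967_at, annotated to 14 H4 genes, had 29221, 20048 and 15289 in MVs, 1224, 1699 and 1653 in EXOs and 6161, 3900.3 and 5996 in hESEVs. The groups did not overlap, and MVs were 13.8-fold higher than EXOs (log2 fold change 3.78, standard error 0.24, adjusted p = 2.9e-05). By its means it was the only cluster probe set above the level of tissue-restricted genes in every group. Its EXOs mean of 1526 was close to the EXOs level of 1326, and EXOs replicate 1 was below that level, so the fold is uncertain in size.

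The other called H4 probe sets were dimmer. H4C11, by the probe set 214463_x_at, had 1453, 2000.3 and 1326 in MVs, 81.3, 79.1 and 195 in EXOs and 896, 758 and 521 in hESEVs, 14.5-fold higher in MVs than in EXOs (adjusted p = 0.000969). The probe set 208580_x_at, also annotated to 14 H4 genes, had 862, 920.0 and 1037 in MVs, 54.6, 58.0 and 45.5 in EXOs and 389, 103 and 412 in hESEVs, 17.9-fold higher in MVs (adjusted p = 0.00107). With both, the EXOs signals were far below the tissue-restricted level, and the folds are uncertain in size. The remaining 12 of 15 H4 probe sets were not called, 3 of them annotated to the same 14 genes. Their probes may match the paralogs to different degrees, and the H4 genes that gave the signal cannot be told apart. The promoter of H4C11 printed above carries GGTCCG, as do those of 12 of the 13 matched H4 genes, whether or not a probe set of theirs was called.

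Of the H2A probe sets of the clusters, 1 of 15 was called, against 7.23% higher and 1.97% lower among all probe sets. The probe set 214290_s_at, for H2AC18 and H2AC19, 2 near-identical genes, had 835, 906 and 748 in MVs, 344, 482 and 335 in EXOs and 311, 485 and 573 in hESEVs. MVs did not overlap EXOs or hESEVs, and the difference between MVs and EXOs was 2.17-fold (log2 fold change 1.12, standard error 0.25, adjusted p = 0.0268). The call was lost without MVs replicate 1, 2 or 3 or EXOs replicate 1 or 3 (adjusted p 0.0621 to 0.102). The other 2 probe sets of this gene pair were not called.

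The brightest cluster probe sets besides 205967_at belonged mostly to H2B. H2BC21, one of the cluster genes known to give polyadenylated transcripts too, had 755, 582 and 799 in MVs, 1058, 1034 and 1064 in EXOs and 1090.2, 793 and 1104 in hESEVs. MVs lay below EXOs on every array, but the log2 fold change of -0.58 (standard error 0.18, adjusted p = 0.0824) did not pass the test. H2BC5, by the probe set 209911_x_at, had 724, 564 and 778 in MVs, 1258, 1056 and 1119 in EXOs and 658, 823 and 638 in hESEVs, and its log2 fold change of -0.74 (adjusted p = 0.0404) was under 2-fold. Its second probe set, 222067_x_at, gave overlapping groups.

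H2BC12L had 736, 723 and 908 in MVs, 859, 990.2 and 603 in EXOs and 1082, 828 and 947 in hESEVs. H2BC12 had 585, 859.7 and 858 in MVs, 778, 922 and 664 in EXOs and 764, 1109.7 and 658 in hESEVs. H2BC6, by 208527_x_at, had 524, 782 and 624 in MVs, 734, 755 and 481 in EXOs and 749, 745 and 691 in hESEVs. Groups overlapped for all 3 genes and for 208490_x_at, which is annotated to 5 H2B genes. No H2B probe set of 20 was called in MVs over EXOs, and their median log2 fold change was 0.00, with a lowest value of -1.31 and a highest of 1.05. In the H3 family, H3C6, by 214616_at, had 399, 518 and 423 in MVs, 1296, 1077 and 424 in EXOs and 1570.3, 948 and 705 in hESEVs. EXOs replicate 3 lay within the MVs range here. Without it the log2 fold change was -1.41 (adjusted p = 0.0149), past the threshold, in place of -0.92 (adjusted p = 0.197). The second H3C6 probe set, 236278_at, was not called and averaged 281 in MVs, 398 in EXOs and 177 in hESEVs, the lowest group there. H1-6, a testis H1, had 750.0, 847 and 505 in MVs, 799, 1753 and 733 in EXOs and 955, 901 and 1296 in hESEVs by 1553568_a_at and was not called. With its other probe set, 207982_at, MVs lay wholly below EXOs, also without a call. No H1 probe set of 7 and no H3 probe set of 11 was called. Among all probe sets 7.23% were called higher and 1.97% lower. With so few probe sets, the absence of calls does not set the H1, H2B or H3 family apart.

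Set against hESEVs, the 2 fractions moved apart. In MVs over hESEVs, 11 of 28 variant probe sets were called higher and 0 lower, and 1 of 70 cluster probe sets was called higher and 0 lower. Among all probe sets 4.25% were called higher and 1.05% lower, and 53.5% of those with a mean log2 signal of 11 or more were called higher. In EXOs over hESEVs, 9 of 28 variant probe sets were called lower and 0 higher, and 2 of 70 cluster probe sets were called lower and 0 higher. Among all probe sets 1.95% were called lower and 0.103% higher, and 37.8% of those with a mean log2 signal of 11 or more were called lower. The median log2 fold change of the variant probe sets was 0.99 in MVs over hESEVs, against -0.20 over all probe sets, and -0.60 in EXOs over hESEVs, against 0.03 over all. Both comparisons use the same hESEVs arrays and are therefore not independent. After quantile normalization only 1 variant probe set and 0 cluster probe sets were called higher in MVs over hESEVs, against 993 of all 54613. The variant medians were then 0.19 and -0.33. Over variant probe sets of 1 gene without a shared-probe suffix they were 0.15 and 0.00.

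Between EXOs and hESEVs, H4C11 gave a log2 fold change of -2.71 (standard error 0.40, adjusted p = 0.00287), and H2AJ by 224301_x_at one of -2.17 (adjusted p = 0.0122). H4C11 was below the tissue-restricted level in both groups and H2AJ in EXOs, so that these sizes are uncertain. The H2AJ call was lost without EXOs replicate 2 or hESEVs replicate 1 (adjusted p 0.0549 and 0.070). For H2AZ1 by 213911_s_at the log2 fold change was 2.08 in MVs over hESEVs and -1.54 in EXOs over hESEVs (adjusted p = 2.55e-06 and 1.58e-05). For the H4 probe set 205967_at the values were 1.99 and -1.80 (adjusted p = 0.000464 and 0.00166). H2AX by 205436_s_at gave 1.13 and -1.41 (adjusted p = 0.000211 and 6.06e-05). With these 3 probe sets, hESEVs lay between MVs and EXOs on every array. After quantile normalization all 3 lost the call in MVs over hESEVs, with 0.29 (adjusted p = 0.294) for H2AX 205436_s_at, 0.61 (adjusted p = 0.214) for the H4 probe set 205967_at and 0.66 (adjusted p = 0.0104), under the 2-fold limit, for H2AZ1 213911_s_at. Leaving out 1 array ended, for at least 1 choice of array, the calls of H2AZ2 212205_at, MACROH2A1 207168_s_at and H3-3 209069_s_at in MVs over hESEVs and of H2AZ2 202487_s_at and H3-3 211997_x_at in EXOs over hESEVs.

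**Figure D5:**
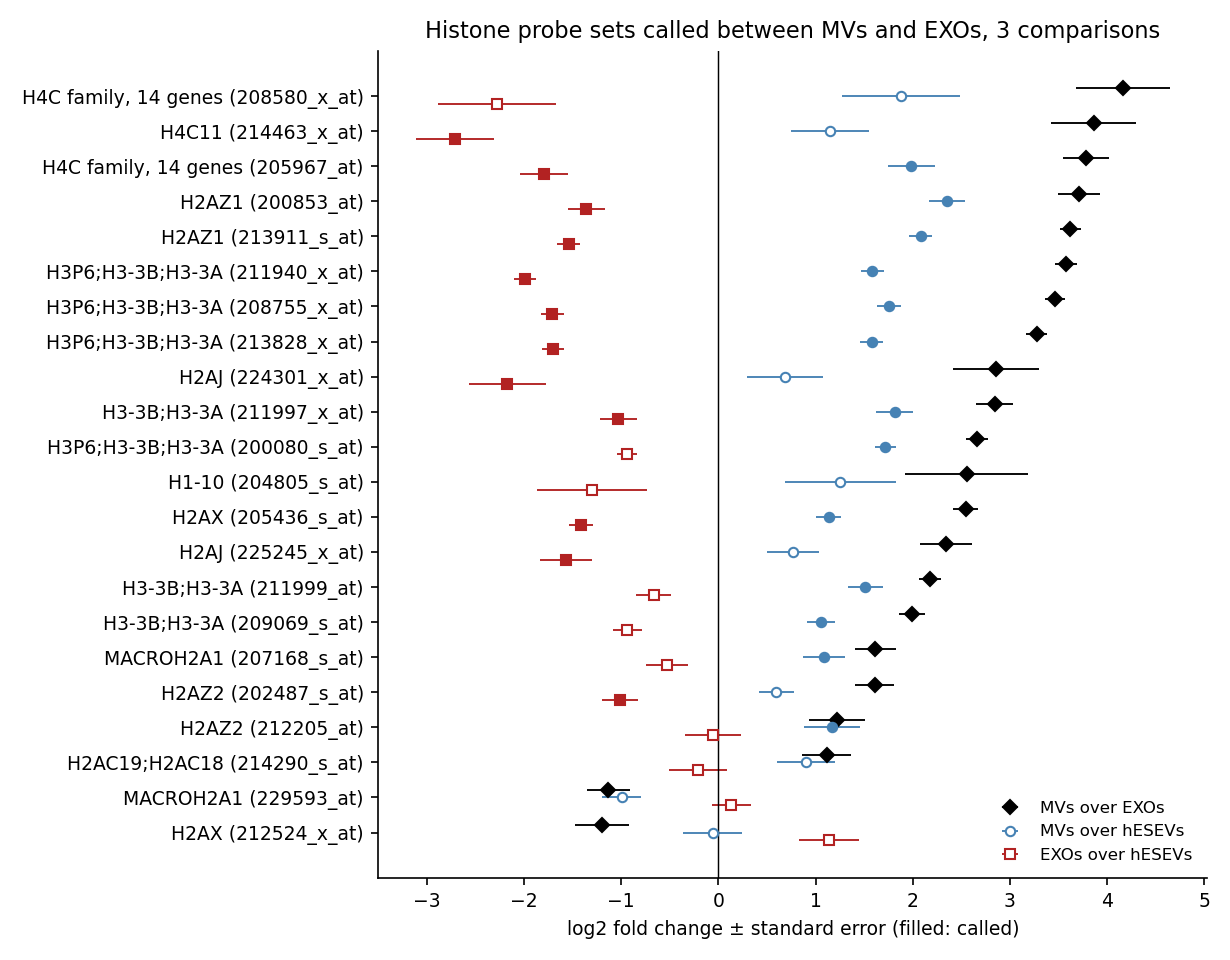
Log2 fold change with its standard error for the 22 variant, cluster and H2AX probe sets called in MVs over EXOs, in all 3 comparisons, with filled points called. Values of MVs over hESEVs lie mostly to the right of 0 and those of EXOs over hESEVs mostly to the left, with H2AX 212524_x_at and MACROH2A1 229593_at at the bottom as exceptions.

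The genes that make, degrade and carry histones were read by 1 probe set each. With 1 probe set for every gene of the array, 2293 of 19775 were called higher in MVs over EXOs and 548 lower. Of 21 genes for histone transcription and 3′ end processing, 5 were called higher in MVs over EXOs and 1 lower, with a median log2 fold change of 0.33. SRRT, a partner of the cap-binding complex, averaged 1896 ± 109 in MVs and 515 ± 79.6 in EXOs (SD, n = 3 arrays each). LSM10, a subunit of the U7 particle that guides the cut at the histone 3′ end, averaged 1281 ± 127 in MVs and 482 ± 121 in EXOs. CPSF3, the nuclease that makes the cut, averaged 1278 ± 86.0 in MVs and 632 ± 65.1 in EXOs, just over 2-fold, and fell under 2-fold without MVs replicate 1 or EXOs replicate 1 or 3 (log2 fold change 0.96 to 0.99). The other called members were SLBP and COIL, which were higher, and PCF11, which was lower. Of the 5 higher genes only SRRT had an MVs mean above the tissue-restricted level, and its EXOs mean was below it.

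Of 15 genes for the decay of histone mRNA, 8 were called higher and 0 lower, against the 2293 and 548 of 19775 genes above, with a median log2 fold change of 1.29. All 7 LSM genes of the list, whose ring binds the tails added to histone mRNA, were among the 8. LSM5 averaged 6471 ± 473 in MVs and 870.0 ± 63.1 in EXOs, and LSM3 averaged 4413 ± 394 in MVs and 840.2 ± 215 in EXOs. DCP2, the decapping enzyme, averaged 2493 ± 334 in MVs and 654 ± 35.9 in EXOs. The EXOs means of LSM5, LSM3 and DCP2 were below the tissue-restricted level, so the sizes of these differences are uncertain. LSM2 stayed under that level in MVs as well. Members that add the tails or chew the RNA, such as TUT7 and XRN1, were not called.

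Of 33 genes for histone chaperones and deposition, 13 were called higher and 0 lower, against the same 2293 and 548 of 19775, with a median log2 fold change of 0.96. NPM1, a nucleolar chaperone, averaged 99924 ± 1487 in MVs and 16015 ± 523 in EXOs, but its log2 fold change of 2.64 became -0.13 after quantile normalization. NCL averaged 8763 ± 726 in MVs and 1275 ± 295 in EXOs, and RUVBL2, an ATPase of the complexes that place H2A.Z, averaged 4685 ± 310 in MVs and 589 ± 132 in EXOs. The EXOs means of NCL and RUVBL2 were below the tissue-restricted level, so the sizes of these differences are uncertain. Each gene stands here by its brightest probe set, and the shares of calls went up with signal as given above. In MVs over hESEVs the 3 lists had 1, 8 and 9 genes called higher and 0 lower, against 1417 of 19775 genes called higher. In EXOs over hESEVs they had 0 higher and 1, 2 and 6 lower, against 648 of 19775 called lower.

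The ratio of 3′ to 5′ signal of control genes, often taken as a sign of RNA integrity and of how far copying reached, moved with the groups. For GAPDH the MVs arrays gave 2.88 to 2.90, the EXOs arrays 1.39 to 1.71 and the hESEVs arrays 1.89 to 2.22. For ACTB the MVs arrays gave 22.5 to 25.2, the EXOs arrays 5.64 to 6.80 and the hESEVs arrays 8.48 to 10.2. These groups do not overlap, in the same order as the variant signals, and the part of this in the histone results was not tested. The authors' electrophoresis showed longer RNA in MVs than in EXOs, and their arrays gave unlike GAPDH levels there. The order of the ratios is therefore not read here as an order of RNA integrity.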

How the data were processed

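Vesicle RNA of 3 MVs, 3 EXOs and 3 hESEVs preparations was hybridised to Affymetrix HG-U133 Plus 2.0 arrays. The deposited values are linear MAS5 signal intensities, which the authors scaled to a target of 500 on each array. The MAS5 version is not given in the sources used here. The RMA normalization that the methods also name is not in these values. From them, log2 of the signal was taken after raising values under 32 to 32, and limma 3.58.1 in R 4.3.3 (lmFit and trended eBayes, with two-sided tests) was fitted to 54613 probe sets, without 62 control probe sets. The comparison of MVs with EXOs used 6 arrays, and those with hESEVs all 9 arrays in 1 fit. Calls needed a Benjamini-Hochberg adjusted p under 0.05 and 2-fold. Python 3.11.15, pandas 2.3.3 and matplotlib 3.10.9 were used for tables and plots. The fit was tested on simulated data.

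Gene symbols came from the platform annotation, of which RefSeq gene IDs changed 0. A probe set with a suffix such as _s_at or _x_at can share probes between transcripts. Signals are brightness and not counts, so the number of arrays limits the precision. Beside the histones, lists of genes for histone transcription and 3′ end processing, for histone mRNA decay and for chaperones and deposition were read, each gene by its brightest probe set with 1 gene, together with stem cell, differentiated lineage and tissue-restricted markers. The text names each variant gene by its called or brightest probe sets, all H2AX probe sets, the 10 brightest cluster probe sets, called cluster probe sets, genes with calls in opposite directions and the 3 list members with the smallest p. The members and lists were chosen with earlier results of these data known.

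Same-numbered arrays of different groups did not deviate together (correlation of deviations -0.011 to 0.013), so the fit has no block. Taken over all probe sets and only 3 arrays per group, these correlations cannot tell whether same-numbered arrays shared a culture. Other scalings, floors, filters, probe set choices, tests and the omission of each array were tried as alternatives.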

Additional observations from a re-analysis of the deposited data

How the results depend on the processing

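With quantile normalization, medians of MVs over EXOs were 0.31 (cluster) and 1.07 (variant), the 3′ processing list had 2 lower and median 0.50, and the chaperone list 1 lower and median 0.64. Log2 fold changes turned sign there to 0.15 (H2BC6), 0.085 (H2BC12L), 0.076 (H2BC12), -0.065 (H2AX 213344_s_at), -0.090 (H3-3 200080_s_at), -0.034 (MACROH2A1 214501_s_at) and -0.13 (NPM1). In MVs over hESEVs it left 0 cluster (median 0.20) and 1 variant probe set higher (median 0.19), and H3-3 213828_x_at at -0.080. Of all 54613 probe sets it called 1498 lower in MVs over EXOs and 993 higher in MVs over hESEVs. The variant median of EXOs over hESEVs was -0.33. Centring on array medians, which moved the median of all probe sets to -0.057, gave for MVs over EXOs medians of 0.38 (cluster), 1.85 (variant), 0.56 (3′ processing), 1.52 (decay) and 1.19 (chaperones), with 0 variant probe sets and 0 processing genes lower, and 0.21 (H2BC6), 0.20 (H2BC12L) and 0.19 (H2BC12). Of all 54613 probe sets it called 336 lower in MVs over EXOs. For MVs over hESEVs it gave 2 cluster probe sets higher and medians of 0.22 and 1.21, with 3168 of all probe sets higher. A shift to hybridization spike-ins, added after seeing the data, gave 0.021 (H2BC6) and 0.011 (H2BC12L). Of all calls in MVs over EXOs, 78.6% were higher, against 93.4% with centring and 63.9% with the methods' t-test unadjusted. In MVs over hESEVs it was 80.2%, against 67.3% (quantile) and 93.5% (centring), and in EXOs over hESEVs 5.0%, against 18.8% (quantile).

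With probe sets of 1 gene without a shared-probe suffix, 0 of 36 cluster and 2 of 9 variant probe sets were higher in MVs over EXOs (variant median 0), as were 2 processing genes (median 0.18), 5 decay genes and 3 chaperones (median 0.73). MVs over hESEVs then had 0 and 2 higher (variant median 0.15), and EXOs over hESEVs 0 and 1 lower (variant median 0.00). Of all 26777 such probe sets, 1458 were higher in MVs over EXOs. In MVs over hESEVs 778 were higher, and in EXOs over hESEVs 260 lower. With 1 probe set per gene, MVs over EXOs had 1 of 44 cluster and 4 of 7 variant genes higher and 0 variant lower, MVs over hESEVs 0 and 1 higher (variant median 0.77), and EXOs over hESEVs 1 and 3 lower (variant median -1.01). Among all 19775 genes with 1 probe set each, 2293 were higher and 548 lower in MVs over EXOs. In MVs over hESEVs 1417 were higher, and in EXOs over hESEVs 648 lower. Both choices leave fewer probe sets. A floor of 100 gave variant medians of 1.41, 0.85 and -0.41 in the 3 comparisons, and a filter at 100 gave -0.80 for EXOs over hESEVs. Without a trend, 0 variant probe sets and 0 processing genes were lower, against 685 of all 54613 probe sets. The methods' t-test called 2 variant probe sets lower unadjusted, and after Benjamini-Hochberg 0, with 3 processing genes higher and 0 lower. Of all 54613 probe sets it called 2650 lower unadjusted, and 2644 higher and 445 lower after Benjamini-Hochberg. The adjusted t-test also ended the higher calls of H2AJ 224301_x_at (adjusted p = 0.0779), H1-10 (adjusted p = 0.151), H2AZ2 212205_at (adjusted p = 0.133) and H2AC18 with H2AC19 (adjusted p = 0.0532). It ended the lower calls of H2AX 212524_x_at (adjusted p = 0.0951) and MACROH2A1 229593_at (adjusted p = 0.0647).

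The replicate numbers may or may not pair the samples, which the sources used here do not say. With them as a block, 13 variant and 3 cluster probe sets were called higher and 0 processing genes lower in MVs over EXOs, and the calls of H2AC18 with H2AC19, H2AX 212524_x_at, H1-10 and H2AZ2 212205_at missed the threshold (adjusted p 0.0565 to 0.0724). Of all 54613 probe sets, 3524 were called higher and 575 lower with the block.

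Leaving out 1 array each gave, for MVs over EXOs, 0 to 2 cluster and 0 to 2 variant probe sets lower, cluster medians of -0.028 to 0.18, variant medians of 1.35 to 1.73, 3 to 5 processing genes higher and 0 to 1 lower, and 0 to 1 chaperones lower (median 0.86 to 0.98). It gave 1 to 2 cluster probe sets higher, 0 to 1 cluster and 0 to 1 variant lower, and variant medians of 0.85 to 1.06 for MVs over hESEVs, and variant medians of -0.77 to -0.53 for EXOs over hESEVs. Of all 54613 probe sets, 2988 to 3749 were then higher and 571 to 786 lower in MVs over EXOs. In MVs over hESEVs 1820 to 2452 were higher and 295 to 586 lower. Fold changes near 0 changed sign: the range was -0.23 to 0.12 for H2BC6, -0.23 to 0.12 for H2BC12L, -0.16 to 0.14 for H2BC12 and -0.14 to 0.086 for H2AX 213344_s_at. Where no construction shows it, the cause of a change was not tested. Of the named probe sets, those not called in a comparison with hESEVs were not recomputed there.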

Other observations

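The 9 histone probe sets of germline genes, pseudogenes and the antisense RNA H1-10-AS1 were dim and none was called in MVs over EXOs. Among all probe sets 7.23% were called higher and 1.97% lower. H1-10-AS1, which lies against the linker variant gene H1-10, had signals of 26.0, 54.6 and 72.8 in MVs, 56.4, 143 and 137 in EXOs and 317, 914 and 116 in hESEVs. All these values lie under the level of tissue-restricted genes.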
